A study of Sus scrofa with 12 samples.

Results

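The 9 genes described here belong to the PPARA axis of the liver: the nuclear receptor PPARA, the transcription factor CREB3L3, the hormone FGF21 and its co-receptor KLB, the secreted lipase inhibitor ANGPTL4, and the enzymes PDK4, VNN1, EHHADH and CYP4A21. They were chosen by name, and each of the 9 symbols was found among the 31694 gene symbols listed for the liver mRNA libraries. Levels were given as RPKM, the reads of a gene scaled by its length in kilobases and by a total of reads of the library, and 12993 genes reached 0.5 RPKM in at least 3 of 6 libraries and were tested. All 9 genes were among them, and FGF21 reached 0.5 RPKM in the JH libraries and in LD2 but not in LD1 or LD3.

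Liver mRNA was sequenced from 3 Jinhua (JH) and 3 Landrace (LD) pigs, and small RNA from livers of the same breeds, at 70 days of age. Jinhua is a Chinese pig breed and Landrace a European one, all pigs were uncastrated males, and none of the labels names a treatment. Each mRNA library came from 1 pig, and the totals by which the RPKM values were scaled, recovered from the values themselves, ran from 5744909 in JH1 to 7914515 in LD3. When the pigs last ate and how they were housed are not given in the sources used here, so differences of that kind and breed cannot be told apart. The libraries differed in the level of the ribosomal RNA gene RN18S, at 5991, 1570.3 and 62257 RPKM in JH1, JH2 and JH3 and 7309, 2108 and 20160 RPKM in LD1, LD2 and LD3. JH3 was the highest, and the median level of the genes tested was lowest in JH3 (4.18 RPKM) and LD3 (4.19 RPKM), against 4.99 to 5.23 RPKM in the other libraries.

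PPARA is a receptor for fatty acids and their derivatives that, paired with a retinoid X receptor, switches on genes of fatty acid breakdown in the liver during fasting. CREB3L3 is held in the membrane of the endoplasmic reticulum until proteases release its active part, and it acts together with PPARA on the gene of FGF21, a hormone made mainly by the liver. FGF21 signals through FGF receptors that are joined by KLB, while peroxisomes shorten very long fatty acids and CYP4 enzymes oxidise the far end of fatty acid chains.

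Between the breeds, FGF21 was higher and KLB was lower in JH, and these were the 2 of the 9 genes that passed the test. A gene was called when its Benjamini-Hochberg adjusted p from limma was under 0.05 and its log2 fold change was over 1 in size. Over all 12993 genes, 133 were called higher in JH (1.02%) and 177 were called lower (1.36%). Without JH1, JH2 and JH3 in turn, 57, 49 and 176 were called higher and 107, 101 and 230 lower, and without LD1, LD2 and LD3, 41, 59 and 62 higher and 38, 55 and 87 lower. The 3 JH values lay all above the 3 LD values for 4 of the 9 genes (CREB3L3, FGF21, ANGPTL4 and VNN1), as for 10.8% of all genes tested. They lay all below for 2 of the 9 (KLB and CYP4A21), as for 12.5% of all genes tested. The values of PPARA, PDK4 and EHHADH overlapped between breeds. The median log2 fold change of the 9 genes was 0.37, beside 0.04 for all genes tested. In a piece of liver, fewer cells of a type and less RNA per cell cannot be told apart.

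**Figure D1:**
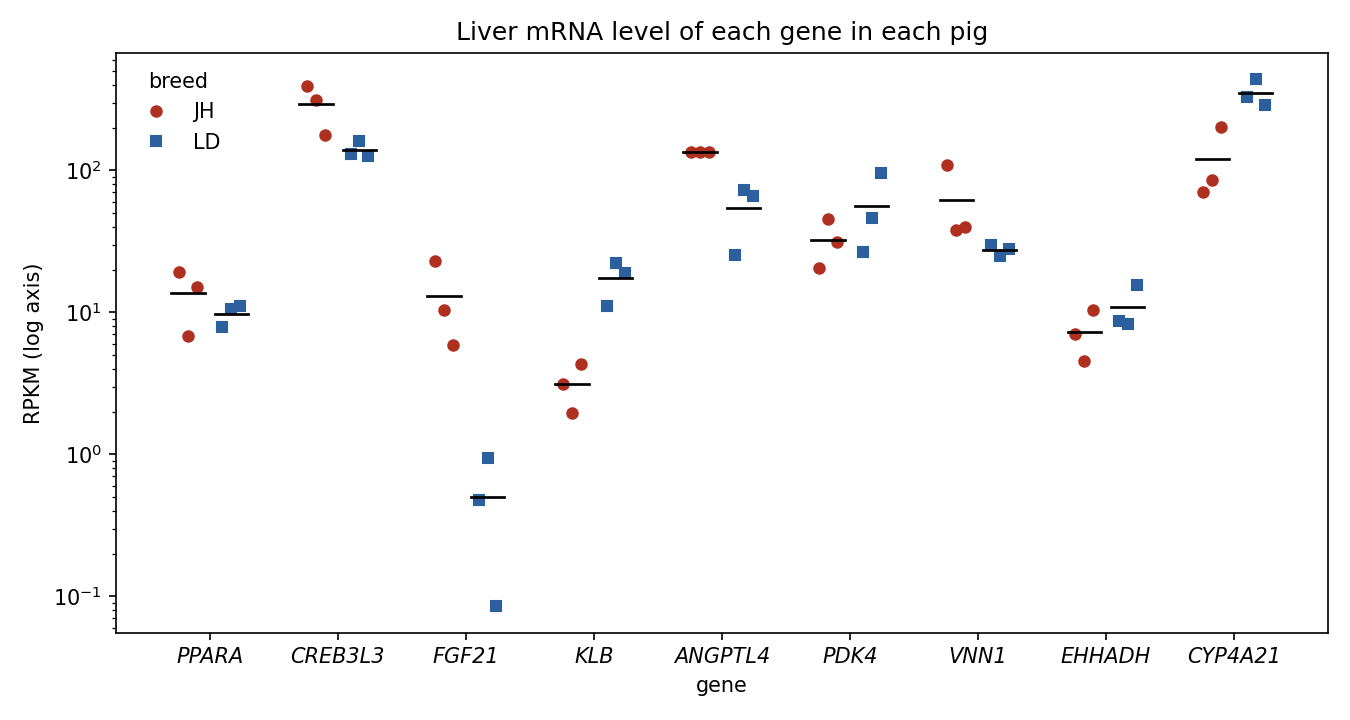
RPKM of each of the 9 genes (log axis) in the 3 JH pigs (circles) and the 3 LD pigs (squares), with points in the order of replicates 1 to 3 and a bar at the mean of each breed. FGF21 lay between 5.93 and 23.1 RPKM in JH and below 1 RPKM in each LD pig, and KLB lay below 5 RPKM in JH and above 11 RPKM in LD.

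The level of PPARA itself was 19.4, 6.85 and 15.0 RPKM in JH1, JH2 and JH3, and 7.89, 10.6 and 11.0 RPKM in LD1, LD2 and LD3. JH2 was the lowest and JH1 the highest of all 6 pigs, so the JH values surrounded those of LD. The means were 13.7 ± 6.35 RPKM in JH and 9.83 ± 1.70 RPKM in LD (SD, n = 3 each). The log2 fold change, on the scale of log2(RPKM + 0.1) as for all fold changes of genes here, was 0.37 with a 95% confidence interval from -0.48 to 1.22 (limma adjusted p = 0.652), and the exact two-sided permutation p was 0.5. A difference of the size called elsewhere therefore lay within the interval, and without JH2 the log2 fold change was 0.80, while without JH1 it was 0.06.

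CREB3L3 had the highest mean of the 9 genes in JH, though in JH3 CYP4A21 was higher (203 RPKM). It measured 392, 313 and 178 RPKM in JH1, JH2 and JH3, and 131, 160.2 and 126 RPKM in LD1, LD2 and LD3. The JH values were all higher than the LD values, but JH3 was only 1.11 times the level of LD2. Its log2 fold change was 1.02 ± 0.32 (SE), which did not pass the test (limma adjusted p = 0.142). The exact two-sided permutation test gave p = 0.1, the smallest value that 3 against 3 pigs allow. Without JH3, the log2 fold change was 1.34 and the adjusted p was 0.0299, so the call changed with that library, the one with the highest RN18S level, whose part in the result was not tested.

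FGF21 showed the widest difference among the 9 genes. Its level was 23.1, 10.3 and 5.93 RPKM in JH1, JH2 and JH3, against 0.475, 0.940 and 0.0852 RPKM in LD1, LD2 and LD3. The lowest JH pig was 6.31 times the highest LD pig, and within JH the pigs spread over a 3.90-fold range with JH1 on top. These levels rested on 68 to 197 reads in each JH library, and on 5, 11 and 1 reads in LD1, LD2 and LD3. The reads were recovered from the RPKM values and are thus inferred, as are the intervals and ratios built on them. For LD3, the exact Poisson 95% interval of 1 read reached from 0.00216 to 0.475 RPKM. Intervals of this kind cover counting error only and leave out the spread between pigs, 3.90-fold in JH and 11.0-fold in LD for FGF21. The reads carried no molecular identifiers, so copies of the same molecule may have been counted more than once. Summed over pigs, 384 reads in JH and 17 reads in LD gave a ratio of 24.4 after division by those totals, with a counting interval from 15.0 to 42.3. Of the 17 reads 11 came from LD2, and without LD2 the ratio was 45.2, outside that interval, while it was 16.3 without JH1 (a check chosen after seeing the data).

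The log2 fold change of FGF21 was 4.56 ± 0.66 (SE; limma adjusted p = 0.0117), higher in 3 of 3 JH pigs than in any LD pig. The exact two-sided permutation test of the same values gave p = 0.1, the smallest it can give here. By fold change, FGF21 stood at rank 11 from the top among the 12993 genes tested. Because its level in LD was low, the size of the fold change moved with the constant added before taking logarithms, and it was 3.08 with 1 in place of 0.1. Without LD1 the log2 fold change was 4.69 and the adjusted p was 0.0539, without LD3 the log2 fold change was 3.88, and over its 13 alternatives the adjusted p ran from 0.00616 to 0.0539.

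KLB, which FGF21 needs to bind its receptors, went the other way. Its level was 3.12, 1.95 and 4.35 RPKM in JH1, JH2 and JH3, and 11.2, 22.4 and 18.9 RPKM in LD1, LD2 and LD3. The lowest LD pig was 2.57 times the highest JH pig, so the breeds were well separated. The means were 3.14 ± 1.20 RPKM in JH and 17.5 ± 5.74 RPKM in LD (SD, n = 3 each), from 48 to 107 reads per JH library and 252 to 562 reads per LD library. KLB had a log2 fold change of -2.45 ± 0.36 (SE; limma adjusted p = 0.0125), and the exact two-sided permutation p was 0.1. Among all genes tested, KLB stood at rank 110 from the lowest fold change. Without LD2, the pig with the highest value, the log2 fold change was -2.25 and the adjusted p was 0.0531, while over the 14 alternatives the adjusted p ran from 0.00491 to 0.0531.

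The genes that receive and clear FGF21 were counted from a list of 10, of which 7 were tested. None of the 7 was called by limma in either direction, each had a log2 fold change below 0, and their median was -0.63, beside 0.04 over all genes tested. GRB2, an adaptor protein below many growth factor receptors, was the most abundant, with a log2 fold change of -0.04 (adjusted p = 0.955). FGFR4, the main FGF receptor of hepatocytes, measured 23.8, 27.8 and 23.2 RPKM in JH1, JH2 and JH3, and 37.4, 51.3 and 29.9 RPKM in LD1, LD2 and LD3. All JH values of FGFR4 were below all LD values, with a log2 fold change of -0.63 that did not pass the test (adjusted p = 0.253). FGFR3 had a log2 fold change of -0.56 (adjusted p = 0.341), and its values overlapped between breeds. FGF19, the related hormone of the gut, was listed at 0 in all 6 libraries.

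ANGPTL4, which blocks lipoprotein lipase and is a known target of PPARA, was nearly equal among JH pigs. It measured 134.9, 134.7 and 136.0 RPKM in JH1, JH2 and JH3, and 25.3, 72.8 and 65.7 RPKM in LD1, LD2 and LD3. The JH pigs differed by 0.515% (SD as a percent of the mean, n = 3) and the LD pigs by 46.9%, with LD1 the lowest. Each JH pig was above each LD pig, and the lowest JH pig was 1.85 times the highest LD pig. The log2 fold change of 1.45 ± 0.38 (SE) did not pass the test (limma adjusted p = 0.0939; exact two-sided permutation p = 0.1), and in none of the 14 alternatives did it pass. Without LD1 it was 0.97.

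Among 14 listed relatives of ANGPTL4 and VNN1, 12 were tested, none was called and the median log2 fold change was -0.02. VNN3, of the pantetheinase family of VNN1, had a log2 fold change of 0.55 (adjusted p = 0.291), and PANK1, a kinase of the route to coenzyme A, one of 0.72 (adjusted p = 0.219). The values of VNN3 and PANK1 did not overlap between breeds, with JH on top.

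PDK4, the kinase that shuts off pyruvate dehydrogenase and thereby spares glucose, measured 20.7, 45.7 and 31.5 RPKM in JH1, JH2 and JH3. In LD1, LD2 and LD3 it measured 26.7, 46.3 and 96.2 RPKM. The breeds overlapped, and LD3 stood highest of the 6 pigs. For PDK4 the log2 fold change was -0.67 with a 95% confidence interval from -1.71 to 0.38 (limma adjusted p = 0.495), and the exact two-sided permutation p was 0.4. Without LD3 the log2 fold change was -0.18. Of 9 listed relatives, 8 were tested, none was called and the median log2 fold change was 0.18. The abundant members PDHB, PDHA1 and DLD, parts of the pyruvate dehydrogenase complex, had log2 fold changes of 0.35, -0.0023 and 0.54.

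VNN1, an enzyme that splits pantetheine into pantothenate and cysteamine, measured 109, 38.3 and 39.9 RPKM in JH1, JH2 and JH3. In LD1, LD2 and LD3 it measured 30.0, 25.0 and 27.9 RPKM. JH1 stood apart from the other JH pigs, which were themselves above each LD pig. For VNN1 the log2 fold change was 0.99 ± 0.39 (SE; limma adjusted p = 0.225; exact two-sided permutation p = 0.1). Without JH1 it was 0.50.

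EHHADH, the peroxisomal enzyme that carries out the middle steps of beta-oxidation, measured 7.06, 4.55 and 10.3 RPKM in JH1, JH2 and JH3, and 8.70, 8.23 and 15.7 RPKM in LD1, LD2 and LD3. JH3 was above LD1 and LD2, so the breeds overlapped. Between breeds, the log2 fold change of EHHADH was -0.58 with a 95% confidence interval from -1.40 to 0.25 (limma adjusted p = 0.449), and the exact two-sided permutation p was 0.4. Without JH2 it was -0.28, and likewise without LD3.

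The other enzymes and importers of peroxisomal oxidation numbered 30 in the files, of which 27 were tested. Of these, 1 was called lower in JH and 0 higher by limma, and 21 of the 27 log2 fold changes were above 0, with a median of 0.34. The gene called was CAT, the catalase that removes hydrogen peroxide, at 1301, 1110.3 and 793 RPKM in JH1, JH2 and JH3 and 2778, 2450.2 and 3144 RPKM in LD1, LD2 and LD3. The breeds did not overlap, and the log2 fold change was -1.41 (adjusted p = 0.0369). It was called in 8 of 14 alternatives, with an adjusted p from 0.00867 to 0.136, and not without JH2 (0.0859), LD1 (0.132), LD2 (0.096) or LD3 (0.136), with no filter on low values (0.127) or with the replicate block (0.0571). ACAA1 and HSD17B4, enzymes of the last and middle steps of peroxisomal beta-oxidation, had log2 fold changes of 0.71 (adjusted p = 0.303) and 0.34 (adjusted p = 0.564). ABCD4, PHYH and NUDT7 were listed at 0 in all libraries.

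Among 15 tested genes of peroxisome biogenesis, the median log2 fold change was 0.30, with 1 called higher and 0 lower by limma. That gene was PEX11A, a membrane protein of peroxisome division that PPARA activators induce in rodents. It measured 32.0, 21.8 and 15.5 RPKM in JH1, JH2 and JH3, and 4.65, 9.90 and 7.28 RPKM in LD1, LD2 and LD3. The groups did not overlap, and the log2 fold change was 1.66 (adjusted p = 0.0486). It was called in 6 of 14 alternatives, with an adjusted p from 0.023 to 0.164, and not without JH1 (0.128), JH2 (0.118), LD1 (0.164), LD2 (0.0746) or LD3 (0.115), with a pseudocount of 0.01 (0.0607), with no filter (0.0733) or with the replicate block (0.0748). PEX16, PEX5 and PEX19, the most abundant of the list, had log2 fold changes of 0.29, 0.19 and -0.64.

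CYP4A21, a cytochrome of the CYP4A family that in the pig takes part in making hyocholic acid, a bile acid, was the most abundant of the 9 genes in LD. It measured 70.8, 86.4 and 203 RPKM in JH1, JH2 and JH3, and 328, 439 and 290.0 RPKM in LD1, LD2 and LD3. All JH pigs were below all LD pigs, JH3 being the nearest. The log2 fold change was -1.69 ± 0.39 (SE), which missed the threshold (limma adjusted p = 0.0614; exact two-sided permutation p = 0.1). It passed without JH3, the library with the highest RN18S level, at a log2 fold change of -2.15 (adjusted p = 0.00818), when limma voom was run on the recovered reads (adjusted p = 0.0276), and with a filter of 1 RPKM in all 6 libraries (adjusted p = 0.0449). Over the 14 alternatives the adjusted p ran from 0.00818 to 0.199. CYP4A21 and CYP4A24 are closely related copies, and how reads shared by them were assigned is not given in the sources used here, so both values are uncertain.

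**Figure D2:**
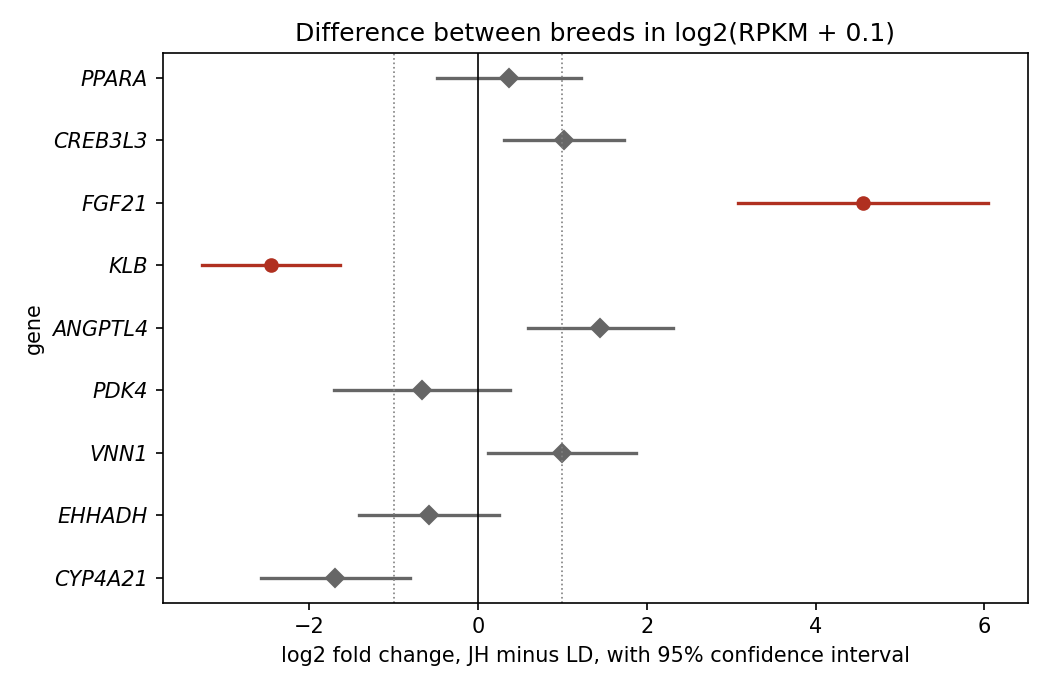
Log2 fold change (JH minus LD) of each of the 9 genes with its 95% confidence interval from limma, not adjusted for multiple testing. Red circles mark the called genes FGF21 (4.56) and KLB (-2.45), grey diamonds the 7 others, and dotted lines a log2 fold change of 1 in either direction.

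Of the other CYP4 genes, 4 were tested and none was called, at a median log2 fold change of 0.03. CYP4A24 measured 8.56, 5.87 and 15.4 RPKM in JH1, JH2 and JH3, and 25.6, 24.9 and 11.4 RPKM in LD1, LD2 and LD3. JH3 was above LD3, so the breeds overlapped for CYP4A24, at a log2 fold change of -1.07 (adjusted p = 0.225). CYP4F2 was higher in each JH pig (88.0 to 161 RPKM) than in any LD pig (54.2 to 60.9 RPKM), with a log2 fold change of 1.14 that did not pass the test (adjusted p = 0.0721). CYP4V2 went the other way at -1.08 (adjusted p = 0.158), also without overlap.

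In order of mean level in JH, the 9 genes ran CREB3L3, ANGPTL4, CYP4A21, VNN1, PDK4, PPARA, FGF21, EHHADH and KLB. The values of ANGPTL4 and CYP4A21, CYP4A21 and VNN1, VNN1 and PDK4, PPARA and FGF21, and FGF21 and EHHADH, neighbours in this order, overlapped in JH, as did CREB3L3 and CYP4A21, PDK4 and FGF21, and PPARA and EHHADH further apart in it. In LD the order ran CYP4A21, CREB3L3, PDK4, ANGPTL4, VNN1, KLB, EHHADH, PPARA and FGF21. There PDK4 and ANGPTL4, ANGPTL4 and VNN1, KLB and EHHADH, and EHHADH and PPARA overlapped, as did PDK4 and VNN1. FGF21 thus stood last in LD at a mean of 0.50 RPKM, and KLB stood last in JH at 3.14 RPKM.

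The receptors and coregulators that work with PPARA gave 12 tested genes, none called by limma, with 11 of the 12 log2 fold changes below 0 and a median of -0.40. PPARD, the closest relative of PPARA here, measured 3.40 to 4.68 RPKM in JH and 6.91 to 9.89 RPKM in LD without overlap, at a log2 fold change of -0.96 (adjusted p = 0.0963). RXRB, a retinoid X receptor, and MED1, a coactivator subunit, overlapped between breeds at -0.31 and -0.13. The genes that process CREB3L3 or resemble it gave 6 tested, none called, with a median of -0.60. MBTPS1, the protease that makes the opening cut in CREB3L3, had a log2 fold change of -0.02, and CREB3 and CREB3L2 had 0.54 and -0.68.

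Of 26 other tested genes known as PPARA targets, 2 were called higher and 2 lower by limma, with a median log2 fold change of -0.05. APOA5, which raises the activity of lipoprotein lipase, measured 2439, 1032 and 605 RPKM in JH1, JH2 and JH3, and 121, 83.9 and 115 RPKM in LD1, LD2 and LD3. Each JH pig was above each LD pig, the log2 fold change was 3.45 (adjusted p = 0.00784), and it was called in all 14 alternatives. SLC27A4, a fatty acid transporter, had a log2 fold change of 1.57 (adjusted p = 0.048). It was called in 7 of 14 alternatives, with an adjusted p from 0.0221 to 0.139. SLC27A4 was not called without JH1 (0.132), JH2 (0.117), LD1 (0.139), LD2 (0.0652) or LD3 (0.115). Nor was it called with a pseudocount of 0.01 (0.0602) or with no filter (0.0732). FABP1, the fatty acid binding protein of the liver, measured 237, 847 and 889 RPKM in JH1, JH2 and JH3, and 2224, 3482 and 3364 RPKM in LD1, LD2 and LD3. It was lower in JH without overlap, at a log2 fold change of -2.40 (adjusted p = 0.0416). FABP1 was called in 7 of 14 alternatives, with a lowest adjusted p of 0.0144. It was not called without JH2 (0.0577), LD1 (0.11), LD2 (0.141) or LD3 (0.118). Nor was it called with a pseudocount of 0.01 (0.053), no filter (0.0903) or the same median in every library (0.0527). Without JH1 its log2 fold change was -1.77. SCD, which makes monounsaturated fatty acids, measured 6.48, 11.8 and 59.3 RPKM in JH1, JH2 and JH3, and 185, 204 and 267 RPKM in LD1, LD2 and LD3. Its log2 fold change of -3.70 (adjusted p = 0.0301) became -3.03 without JH1 and -4.61 without JH3. It was called in 9 of 14 alternatives, with an adjusted p from 0.000606 to 0.105. SCD was not called without JH2 (0.0848), LD1 (0.105), LD2 (0.0936) or LD3 (0.0774), or with no filter (0.0512). ACSL1, which activates fatty acids, was among the most abundant of the list and had a log2 fold change of 0.55 (adjusted p = 0.468).

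Mitochondrial fatty acid oxidation and ketogenesis gave 19 tested genes, of which 2 were called higher and 0 lower by limma, at a median log2 fold change of 0.63. CPT1A, which lets long-chain fatty acids into mitochondria, measured 165, 72.7 and 51.0 RPKM in JH1, JH2 and JH3, and 15.8, 18.2 and 25.3 RPKM in LD1, LD2 and LD3. The breeds did not overlap, with a log2 fold change of 2.13 (adjusted p = 0.037). CPT1A was called in 7 of 14 alternatives, with an adjusted p from 0.0131 to 0.139. The call was lost without JH1 (0.0506), JH2 (0.0795), LD1 (0.139), LD2 (0.123) or LD3 (0.0607). It was also lost with the replicate block (0.0633) and with no filter on low values (0.0569). ACADL, an acyl-CoA dehydrogenase, had a log2 fold change of 1.13 (adjusted p = 0.0445). It was called in 4 of 14 alternatives, with an adjusted p from 0.0247 to 0.16. ACADL was not called without JH1 (0.085), JH2 (0.119), JH3 (0.0609), LD1 (0.16), LD2 (0.155) or LD3 (0.0846). Nor was it called with a pseudocount of 0.01 (0.053), no filter (0.05), quantile normalization (0.0993) or the same median in every library (0.0571). ETFB, ECI1 and ACADM, the most abundant of the list, had log2 fold changes of 0.71, 0.22 and -0.57. Genes of feeding and fasting gave 9 tested, none called, with a median of -0.03. PCK1, the gluconeogenic enzyme, measured 753, 85.0 and 28.0 RPKM in JH1, JH2 and JH3 and 99.4, 113 and 169 RPKM in LD1, LD2 and LD3. PCK2 and TAT had log2 fold changes of 0.40 and 0.13.

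**Figure D3:**
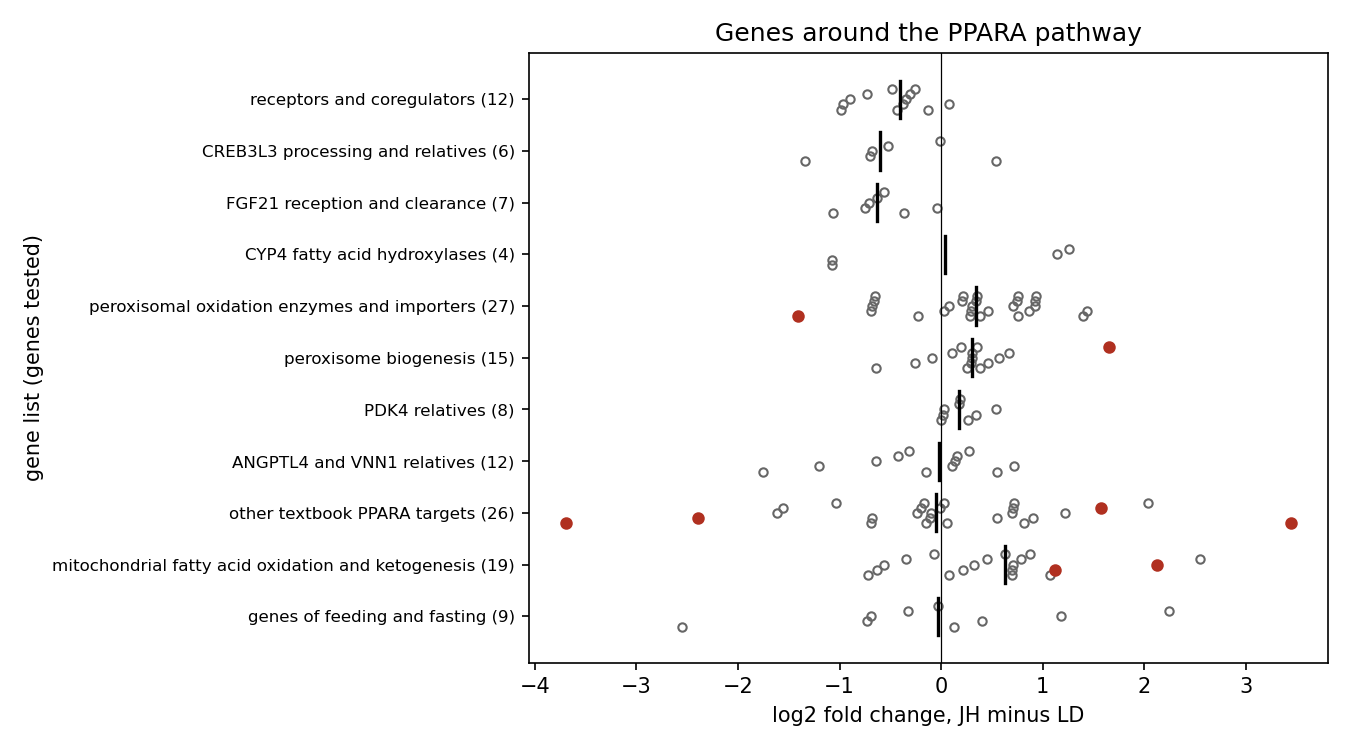
Log2 fold change (JH minus LD) of each tested gene in 11 lists around the pathway, with the number tested in brackets and a bar at the median. Filled red points are the genes called, from SCD (-3.70) on the left to APOA5 (3.45) on the right, and open points are the others.

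JH1 held the highest of the 6 values of PPARA, CREB3L3, FGF21 and VNN1, the lowest of PDK4 and CYP4A21 and, picked after its values were seen, the highest of PLIN2, a lipid droplet protein. PLIN2 measured 195, 27.0 and 12.9 RPKM in JH1, JH2 and JH3, and 6.72 to 12.6 RPKM in LD. Without JH1, FGF21 (log2 fold change 4.05, adjusted p = 0.0297) and KLB (-2.48, adjusted p = 0.0326) were still called.

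Markers of other liver cells were set beside these results, and their part in them was not tested. The 8 stellate and fibroblast markers were tested and 3 were called lower in JH by limma and 0 higher, namely COL1A1 (log2 fold change -2.77, adjusted p = 0.0144), COL1A2 (-1.78, 0.0442) and COL3A1 (-1.75, 0.0159). Their summed level was 79.9, 101 and 83.2 RPKM in JH1, JH2 and JH3, and 299.9, 389.9 and 194 RPKM in LD1, LD2 and LD3, with COL3A1 the most abundant and none listed at 0 in all libraries, though LUM was at 0 in JH1. KLB and CYP4A21 were lower in the same pigs. ACTA2 of the same list overlapped at -1.33. Over the 14 alternatives, COL1A1 was called in each, COL1A2 in 8 and COL3A1 in 12. COL1A2 was not called without JH1 (adjusted p = 0.116), JH3 (0.0688), LD1 (0.146) or LD2 (0.147). Nor was COL1A2 called with a pseudocount of 0.01 (0.0553) or with no filter (0.0652). COL3A1 was not called without LD1 (0.0811) or LD2 (0.0674).

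Erythroid markers summed to 90.2 to 122 RPKM in JH and 213 to 393 RPKM in LD, mostly from HBB, and 1 of 2 tested, HBB, was called lower (log2 fold change -1.39, adjusted p = 0.0459). Bile duct markers summed to 7.08 to 15.7 RPKM in JH and 15.1 to 35.2 RPKM in LD, SPP1 being the most abundant, and EPCAM was called lower (-1.55, adjusted p = 0.0301), 1 of 3 tested. HBB and EPCAM were called in 6 and 8 of the 14 alternatives, and lost the call without any library but JH3, at adjusted p values of 0.111 and 0.0755 without JH1, 0.135 and 0.0658 without JH2, 0.143 and 0.105 without LD1, 0.0888 and 0.111 without LD2, and 0.0989 and 0.0566 without LD3. HBB also lost the call with the replicate block (0.0526), a pseudocount of 0.01 (0.056) and no filter (0.0673). EPCAM also lost it with no filter (0.0592). Endothelial markers gave 7 tested and macrophage markers 6 tested, none called. Of the endothelial markers, 6 of 7 had log2 fold changes below 0, with a median of -0.48, and 3 lay lower in JH without overlap, PECAM1 among them at -0.81 (adjusted p = 0.0988). The summed levels were 168 to 273 RPKM in JH and 216 to 274 RPKM in LD for endothelial cells, with CLEC4G on top, and 704 to 1693 RPKM in JH and 899 to 1025 RPKM in LD for macrophages, with C1QC on top and CD163 listed at 0. Hepatocyte markers summed to 43773 to 49246 RPKM in JH and 61392 to 79802 RPKM in LD, led by ALB, with none of 8 tested called and APOB listed at 0. Of these 8, 3 had log2 fold changes above 0 and 5 below, with a median of -0.18. ALB and TF were below all LD values in each JH pig, at log2 fold changes of -0.67 and -1.13, while TTR overlapped at -0.17. Adipocyte markers summed to at most 2.87 RPKM in any pig, with LEP and CIDEA listed at 0, and skeletal muscle markers to at most 0.980 RPKM, with CKM, MYH7, MYH2, TNNT3, TNNC2 and MB listed at 0. Since genes that liver cells use, such as APOB and PHYH, were also listed at 0, a listed 0 cannot be read as absence, and these sums cover only the markers with a value.

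Genes whose pattern over the 6 pigs was most like that of a member were found by the root mean square difference of log2 values centred on each gene's mean. This distance grows with the spread of a gene and with its counting error, so it is not compared between members. For FGF21 the nearest were PPP1R1B (0.74) and LIPK (0.83), and for KLB they were SORCS1 (0.32), TMPRSS11D (0.38) and AKR1D1 (0.39). SORCS1 and TMPRSS11D lay at 0.182 RPKM or less in JH, LIPK at 0.289 RPKM or less in LD, and PPP1R1B at 0.0976 RPKM in LD3, near the 0.1 added before taking logarithms, so these likenesses rest in part on that constant. The nearest genes of CREB3L3 were PSEN2 (0.06), GPD1 (0.07) and UGPP (0.07). ANGPTL4 had MEST (0.30), TSKU (0.31) and ALAS1 (0.32), and CYP4A21 had KIRREL (0.13), FKBP10 (0.14) and ACSS2 (0.18), KIRREL and FKBP10 being as low as 0.188 and 0.184 RPKM in JH1. Among all pairs of the 9 genes, the smallest distances, picked as such, were 0.40 for CREB3L3 and VNN1, 0.52 for PPARA and VNN1, and 0.58 for KLB and CYP4A21. The difference between breeds enters this distance, so genes that moved the same way lie closer. CREB3L3 was nearer to PSEN2, GPD1 and UGPP than to VNN1.

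In the small RNA libraries, 241 of 411 miRNAs were tested as RPM, the reads of a miRNA scaled by the clean reads of the library, with 2 called higher in JH (0.83%) and 21 called lower (8.71%). Without LD3, 8 were called lower, and without JH2, JH3 or LD3, 1 was called higher. Of 7 miRNAs known to act on PPARA or KLB or sharing a seed with one that does, 1 was called. That was ssc-miR-34a, which acts on KLB in mouse liver, at 6.02, 8.85 and 4.50 RPM in JH1, JH2 and JH3 and 45.0, 44.1 and 64.2 RPM in LD1, LD2 and LD3. All JH values were below all LD values, with a log2 fold change of log2(RPM + 0.5) of -2.92 ± 0.28 (SE; limma adjusted p = 7.43e-05), and it was called in all 10 alternatives. Both miR-34a and KLB were lower in JH, and a link between them was not tested.

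The other 6 miRNAs were not called. Their log2 fold changes were -0.49 for ssc-miR-34c (adjusted p = 0.377), -0.42 for ssc-miR-21 (0.284), -0.31 for ssc-miR-27b-3p (0.515), -0.25 for ssc-miR-10b (0.776), -0.01 for ssc-miR-27a (0.979) and 0.19 for ssc-miR-22-3p (0.647). The median log2 fold change of all miRNAs tested was -0.30. Setting every library to the same median raised each log2 fold change by 0.39, to -2.52 for ssc-miR-34a (adjusted p = 0.0034) and to 0.38, 0.084 and 0.14 for ssc-miR-27a, ssc-miR-27b-3p and ssc-miR-10b. The 2 higher and 21 lower calls became 3 and 4.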

How the data were processed

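The authors aligned 50 bp single reads of liver mRNA to Sscrofa10.2 with TopHat2 2.0.13 (version per the labels), used gfold for the read count of each gene, and deposited the levels as RPKM, 1 file per pig. For miRNAs the authors deposited RPM values over clean small RNA reads. Limma 3.58.1 (R 4.3.3) was fitted with a trend to log2(RPKM + 0.1), or log2(RPM + 0.5) for miRNAs at 1 RPM in at least 3 libraries, with breed as the only term, and was tested on simulated data. Whole reads were recovered from the RPKM steps for 17983 of 19614 genes above 0 (91.7%). The members and lists were chosen with earlier results of these data known. Named genes were all members, from each list the genes called and the 3 with the highest mean RPKM, the 7 miRNAs, and the 3 nearest in pattern; a few of these are not reported here. Gene names were matched in RefSeq for Sscrofa11.1 (9 of 9), without coordinates. Alternatives covered pseudocount, filter, normalization, pairing, left-out libraries, call rule and limma voom.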

Additional observations from a re-analysis of the deposited data

How the results depend on the processing

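All 9 member genes kept their direction under each alternative that gave a value, and FGF21 could not be tested with a filter of 1 RPKM in all 6 libraries, which left 0 members called higher and 2 lower. Limma voom also called 2 members lower. Leaving out 1 library gave 0 to 2 members called higher and 0 to 2 lower, 41 to 176 genes called higher and 38 to 230 lower. A pseudocount of 0.01 gave 83 higher and 116 lower, and no filter gave 76 higher. Of the genes in the pathway lists, 5 were called higher and 3 lower. These became 2 higher with a pseudocount of 0.01, 1 higher and 0 lower with no filter, 5 lower with quantile normalization, 6 lower with voom, and 1 to 8 higher and 0 to 5 lower without 1 library. The cause was not tested.

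The deviations of same-numbered pigs from their breed means correlated at r = -0.02, 0.05 and 0.18 for mRNA, not over 0.1 in each pair and not always best with the own number, so the values reported use no pairing. Library medians were nonetheless close within a number (5.03 and 4.99, 5.23 and 5.15, 4.18 and 4.19 RPKM in JH and LD 1, 2 and 3). RN18S also kept the same order by number in each breed. It was lowest in JH2 and LD2 (1570.3 and 2108 RPKM) and highest in JH3 and LD3 (62257 and 20160 RPKM). Whether the numbers mark something shared was not settled. With the replicate number as a block, 114 genes were called higher and 139 lower, and 3 list genes higher.

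For miRNAs, 2 called higher became 5 at an unadjusted p, and 1 to 3 without 1 library. The 21 called lower became 12 with a pseudocount of 5, 4 with the same median in every library, and 8 to 20 without 1 library. Log2 fold changes that changed sign were those of ssc-miR-27a (0.38 with the same median, and -0.12 to 0.11 without 1 library), ssc-miR-10b (0.14, and -0.86 to 0.47) and ssc-miR-27b-3p (0.084 with the same median). Count tests on reads recovered from RPM were not run, since whole reads were not recovered for nearly all miRNAs.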
